A study of Homo sapiens with 6 samples.

Results

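RAB proteins are small GTPases of membrane traffic. The set described here holds every gene in 3 m6A peak lists whose symbol is RAB, a number and at most 1 closing letter. RAB1A, the effector and exchange factor symbols that begin with RAB, and hyphenated readthrough symbols were left out. Of 10859 genes with a peak in any list, 29 were members, and they held 116 peaks over the lists. RefSeq names 63 genes that fit the rule, of which 62 are protein-coding, and 34 of the 63 had no peak in any list.

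A RAB protein switches between a GTP-bound form, which sits on a membrane and recruits effectors, and a GDP-bound form. Exchange factors (GEFs) load GTP, GTPase-activating proteins (GAPs) end the active state, and the carrier protein GDI extracts the prenylated GDP form from the membrane. Each RAB marks a particular route, such as transport within the Golgi, fusion of early endosomes, recycling to the surface or release of secretory granules. N6-methyladenosine (m6A) is an internal mark of messenger RNA that is common near stop codons, and YTHDF2 (DF2) is a cytoplasmic reader protein that binds it and promotes decay of the RNA.

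The cells were U2OS, an established line from a human bone osteosarcoma, labelled as epithelia cells of wild-type genotype. They received DF2 siRNA 1, DF2 siRNA 2 (both directed at YTHDF2) or a control siRNA. Each of the 3 conditions had 1 m6A-IP and 1 input library of cytoplasmic RNA broken into fragments of about 100 nt, 6 libraries in all, and both siRNA conditions are set against the same control. The authors deposited 1 peak list per condition, named as a merge of r1 and r2, so there is no replicate spread and no test.

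The DF2 siRNA 1 list held 13147 peaks in 8417 genes, the DF2 siRNA 2 list 13310 peaks in 8609 genes, and the control list 15272 peaks in 9618 genes. A list shows where a peak was called and gives no RNA level, so depletion of YTHDF2 could not be checked, and fewer cells of a type cannot be told apart from less RNA per cell. Of 9 mesenchymal or osteoblast markers, 3 had a peak with siRNA 1 (VIM, RUNX2 and COL1A1), and 2 each with siRNA 2 and in control (RUNX2 and COL1A1). Of 8 epithelial markers, KRT8 and CLDN4 had a peak with each DF2 siRNA, and none of the 8 had one in control. None of 4 haematopoietic markers had a peak in any list. Their part in the results was not tested. Intervals are 95% exact binomial (Clopper-Pearson) intervals, cover counting error only, and do not measure the spread between samples. The read depth behind a peak is unknown.

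Peaks at the start of RAB genes are the ones whose sequence could be read, since RefSeq promoter windows (assembly GRCh38.p14, 250 bases before to 50 after a gene start) were given and no genome was. The windows were searched on the transcribed strand for GGAC or AGAC followed by A, C or T, which are forms of the consensus in which m6A is found, and overlapping matches were kept. The sites below lie inside deposited peaks, 1 shown per gene where there were more. Counted in bases from the RefSeq gene start, they stood upstream of it at -7 in RAB17, -191 in RAB35 and -150 in RAB40C. The RAB5B site was also upstream, at -6 or -135 by the RefSeq start used. Those of RAB32 and RAB43 stood at 1 and 24. The gene starts used by the authors were not given. The 5′ peaks of RAB43 and RAB5B were in 1 siRNA list alone, and those of the other genes were in all 3 lists. The capitals mark the motif, and the RAB17, RAB35 and RAB43 sites are on the minus strand.
RAB17 at chr2:237590727-237590751, peaks in all 3 lists: tgaccactgtGGACTttgccctgaa
RAB32 at chr6:146543823-146543847, peaks in all 3 lists: gcagggggccAGACTcggagtcgag
RAB35 at chr12:120116930-120116954, peaks in all 3 lists: gcgcttgctgGGACTccgtcagggc
RAB40C at chr16:589509-589533, peaks in all 3 lists: caaacaacgtGGACTtccgagcccc
RAB43 at chr3:129121767-129121791, peak with siRNA 2 alone: acggagctgaGGACCggccggagct
RAB5B at chr12:55973933-55973957, peak with siRNA 1 alone: gcgcccaaagAGACTcgcctttctc

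A motif of this kind is common in such windows. It was in 80.6% of 35116 RefSeq windows on the transcribed strand and in 81.0% on the other strand. Of the 17 windows of RAB members that overlap a deposited peak, 13 held one on the transcribed strand and 13 on the other (76.5% each), and 10 held both. Among all 38 windows of the 26 members matched, 29 held one on the transcribed strand and 29 on the other (76.3% each). The match is a description of the letters and does not place an m6A.

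Every RAB member had a peak with DF2 siRNA 1. The counts were 29 of 29 genes with siRNA 1 (100%, interval 88.1% to 100%), 24 with siRNA 2 (82.8%, interval 64.2% to 94.2%) and 24 in control (82.8%, same interval). Among all genes with a peak in any list the shares were 77.5% with siRNA 1, 79.3% with siRNA 2 and 88.6% in control. Among the 9047 genes with a peak on a UTR, a coding sequence or a stop codon they were 83.9% with siRNA 1, 82.2% with siRNA 2 and 88.9% in control. Both siRNA 1 backgrounds lie below the RAB interval, and the siRNA 2 and control backgrounds lie inside it. The siRNA 1 separation rests on the rule for members and is not read as a trait of RAB genes. RAB10, RAB34 and RAB4B are members through siRNA 1 alone, so part of the 29 of 29 was fixed by how members were chosen. Of the 63 RefSeq genes that fit the rule, 29 had a peak with siRNA 1, 24 with siRNA 2 and 24 in control. Among RefSeq protein-coding symbols the shares with a peak were 36.7%, 35.99% and 38.9% in that order. Among peaks with an FDR under 0.01 the siRNA 1 count was 25 of 26 RAB genes (96.2%, interval 80.4% to 99.9%), beside 76.7% of all genes. The share among genes with a peak on a UTR, coding sequence or stop codon was not computed at that setting. In the upper 50% of each list by score it was 21 of 26 (80.8%, interval 60.6% to 93.4%), beside 77.7% of all genes, so there the RAB share did not stand apart from the background. The excluded RAB1A, which acts between the endoplasmic reticulum and the Golgi, had 0 peaks in both siRNA lists and 2 in control. Counting it would end the full count with siRNA 1 and lower the interval set against the backgrounds. That interval was not computed.

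Most members were called in each condition, and none was called in control alone under the rule. Counting RAB1A gives 1 gene in control alone, and going by the place of the strongest peak gives 2 (RAB28 and RAB5B). A peak in all 3 lists was found for 22 of 29 RAB genes (75.9%, interval 56.5% to 89.7%), against 65.3% of all genes and 71.1% of genes with a peak on a UTR, coding sequence or stop codon. Control alone held 0 RAB genes (upper bound 11.9%), against 12.1% of all genes and 8.91% of the second set. It held 4 in the upper 50% of each list by score, where 13.4% of all genes were in control alone. RAB11B and RAB24 were called with each DF2 siRNA but not in control (6.90%, interval 0.846% to 22.8%), against 3.56% and 3.89%. RAB10, RAB34 and RAB4B had a peak with siRNA 1 alone (10.3%, interval 2.19% to 27.4%), against 5.03% and 5.23%. RAB31 and RAB5B had one with siRNA 1 and in control, against backgrounds of 3.63% and 3.67%. No RAB gene was found with siRNA 2 alone, where the backgrounds were 2.84% and 1.98%, or with siRNA 2 and control alone, where they were 7.59% and 5.18%. These backgrounds lie inside the RAB intervals, apart from 12.1% against the bound of 11.9% for control alone, where the 0 depends on leaving RAB1A out.

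**Figure D1:**
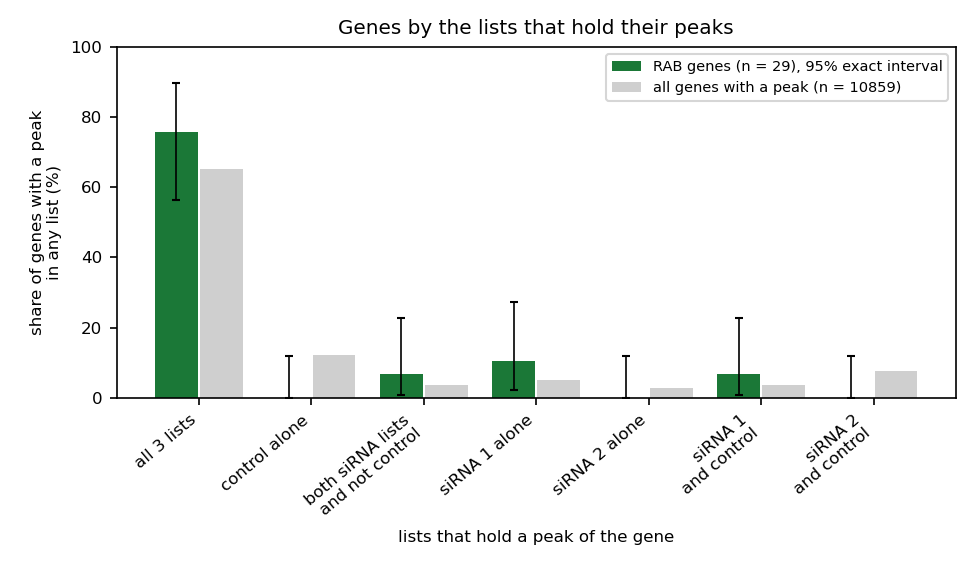
Share of genes (%) by the lists that hold a peak of the gene, for 29 RAB genes (green, with 95% exact intervals) and for all 10859 genes with a peak (grey). The RAB bar is at 75.9% for all 3 lists and at 0 for control alone, siRNA 2 alone, and siRNA 2 with control.

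The count of genes hides differences in place, so peaks were also compared by position. Peaks sharing at least 1 base on the same strand were taken as the same. Regions join RAB peaks only, while the overlap shares in the next paragraph count a peak of any gene. The 116 RAB peaks fell into 51 regions, of which 26 held peaks of RAB genes from all 3 lists. Another 7 regions were in control alone, 5 with both siRNAs and not control, 5 in siRNA 1 alone, 1 in siRNA 2 alone, 2 in siRNA 1 and control, and 5 in siRNA 2 and control. A RAB43 region is among the 5 with both siRNAs, although ISY1-RAB43 had a control peak at that place. There were 16 members with 1 region and 13 with more. Regions were not built for all genes, so these counts have no background beside them and are not read as particular to RAB genes.

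Of the 38 RAB peaks with siRNA 1, 9 overlapped no control peak, against 18.5% of all siRNA 1 peaks, and 29 did (76.3%, interval 59.8% to 88.6%). Of the 37 with siRNA 2, 5 overlapped no control peak, against 13.9% of all, and 32 did (86.5%, interval 71.2% to 95.5%). Of 41 control RAB peaks, 12 overlapped no siRNA 1 peak and 9 no siRNA 2 peak, against 32.9% and 26.6% of all control peaks. Control peaks that overlapped neither siRNA list numbered 7 of 41, against 22.3% of all. Peaks found in their own list alone make up 10.8% of all siRNA 1 peaks and 6.51% of all siRNA 2 peaks. The overlap of all peaks lay inside the RAB intervals.

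Stop codons carried the largest class of RAB peaks in each list. The class takes any peak that touches an annotated stop codon, so it includes a peak at the start of RAB17 in each siRNA list. They were 23 of 38 peaks with siRNA 1 (60.5%, interval 43.4% to 76.0%), 19 of 37 with siRNA 2 (51.4%, interval 34.4% to 68.1%) and 22 of 41 in control (53.7%, interval 37.4% to 69.3%). Over all peaks, which also lie on non-coding RNAs, the shares were 43.5%, 43.7% and 42.9% in that order, each inside the RAB interval. A stop codon peak in any list was found for 23 members, and in each of the 3 lists for 16 of them. The same counts were not made over all genes, so they have no background beside them.

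The 5′ UTR held 9 of 38 RAB peaks with siRNA 1 (23.7%, interval 11.4% to 40.2%), 7 of 37 with siRNA 2 (18.9%, interval 7.96% to 35.2%) and 6 of 41 in control (14.6%, interval 5.57% to 29.2%). These intervals overlap, and in the upper 50% of each list by score the shares were 8.33% with siRNA 1, 4.76% with siRNA 2 and 8% in control. All peaks gave 18.9% with siRNA 1, 16.6% with siRNA 2 and 14.4% in control. Among the 9 siRNA 1 peaks with no control peak at their place, 4 were on a 5′ UTR (RAB10, RAB28, RAB4B and RAB5B), which is 44.4%, against 43.4% of all such siRNA 1 peaks. Among the 5 such siRNA 2 peaks, 2 were on a 5′ UTR (RAB28 and RAB43), beside 36.3% of all such siRNA 2 peaks. Of the 7 RAB peaks in control alone, 0 were on a 5′ UTR and 4 on a 3′ UTR (RAB27B, RAB40B, RAB5B and RAB9A), while 15.7% of all control-only peaks were on a 5′ UTR and 27.7% on a 3′ UTR. Only 1 RAB peak lay on coding sequence alone, in RAB17 with siRNA 2.

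**Figure D2:**
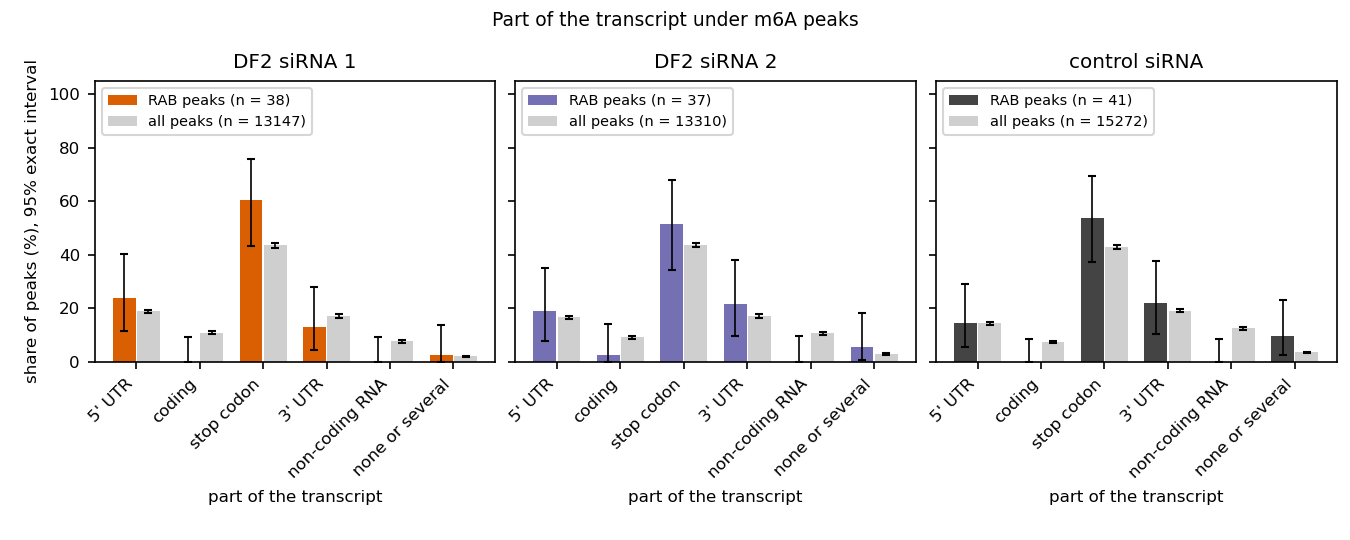
Share of peaks (%) on each part of the transcript in the DF2 siRNA 1, DF2 siRNA 2 and control siRNA lists, for RAB peaks (coloured) and all peaks (grey), with 95% exact intervals. The stop codon is the tallest RAB bar in each list, at 60.5%, 51.4% and 53.7%.

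For the members' own values, the authors' peak score was turned into a percentile among the peaks of its own list, since the median score was 33 with siRNA 1, 99 with siRNA 2 and 158 in control. Scores, percentiles and the authors' fold enrichments are given for each list next to one another. They describe where a peak ranks, and no change between lists can be measured from them. Taking the strongest peak of each gene, the median percentile over RAB genes was 57.4 with siRNA 1 (interval 50.5 to 73.4, n = 29 genes), 64.2 with siRNA 2 (50.3 to 79.1, n = 24) and 68.3 in control (53.1 to 78.4, n = 24). The medians over all genes were 59.5, 59.0 and 60.1, inside those intervals. At or above percentile 90 were 3 RAB genes with siRNA 1, 4 with siRNA 2 and 3 in control, while 14.1% (siRNA 1), 13.99% (siRNA 2) and 14.1% (control) of all genes stood there.

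**Figure D3:**
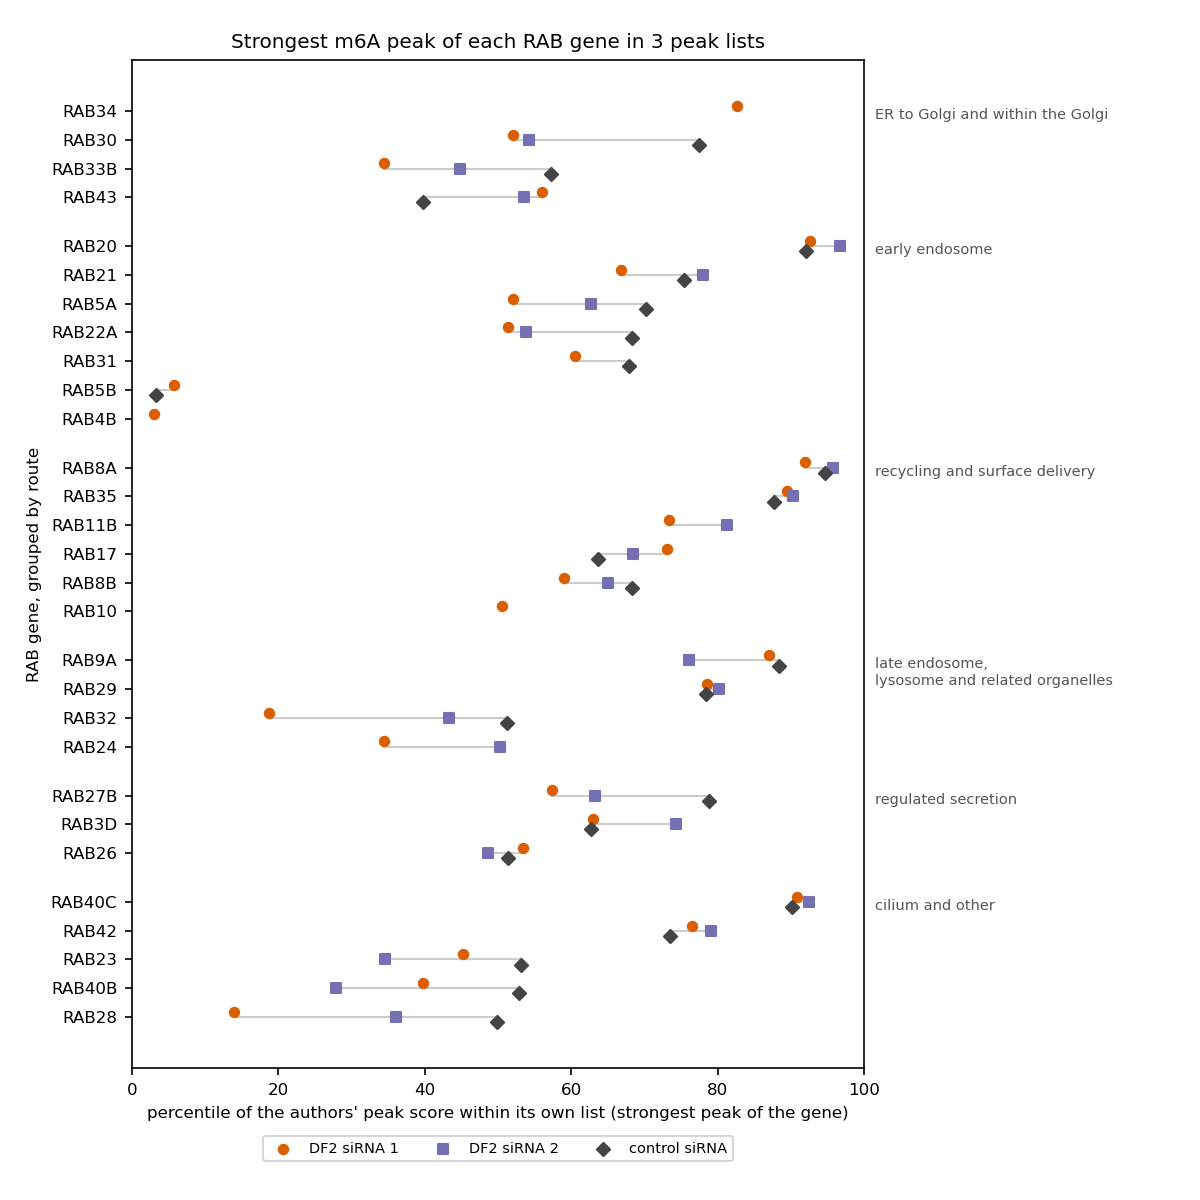
Percentile of the authors' score within its own list for the strongest peak of each of 29 RAB genes, grouped by route, with DF2 siRNA 1 as circles, DF2 siRNA 2 as squares and control siRNA as diamonds; a missing symbol means no peak. RAB8A, RAB20 and RAB40C stand above percentile 90 in all 3 lists, and RAB5B and RAB4B stand below 6.

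By route, counts of members with a peak can be read against all RefSeq protein-coding symbols. Of those 20056 symbols, 43.8% had a peak in any list, 36.7% with siRNA 1, 35.99% with siRNA 2 and 38.9% in control. A route holds 7 to 17 RAB genes, too few to set it apart from those shares or from another route.

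Among RABs of the endoplasmic reticulum to Golgi route and of the Golgi, 4 of 17 RefSeq members had a peak, all with siRNA 1 and 3 each with siRNA 2 and in control. The 13 with none include RAB1B, RAB2A, RAB6A and RAB18, which are core members of this route. RAB30, a Golgi protein, had its strongest peak over the stop codon, at percentile 52.1 with siRNA 1, 54.3 with siRNA 2 and 77.4 in control. Its fold enrichment was 20.5 with siRNA 1, 41.4 with siRNA 2 and 77.2 in control, in peaks of 800, 800 and 1000 bases. RAB33B, which binds the autophagy protein ATG16L1, gave the same order. Its stop codon peak stood at percentile 34.5 with siRNA 1, 44.8 with siRNA 2 and 57.3 in control, with fold enrichments of 10.7, 14.9 and 43.5. Each siRNA peak was 1 block of 400 bases (chr4:139472782-139473181). The control peak covered 600 bases in 2 blocks (chr4:139454341-139473181), so these values are not for the same stretch.

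RAB34, a Golgi RAB that also acts in building the primary cilium, had a single peak, with siRNA 1. It covered 400 bases at the stop codon (chr17:28714409-28714808) at percentile 82.6, with a score of 130, a fold enrichment of 12.7 and a −log10 FDR of 2.08. It was the highest-ranked RAB peak without a counterpart in the other lists.

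RAB43, of the Golgi, had 2 neighbouring regions in all 3 lists, and its strongest peak lay in the 3′ UTR at percentile 56.0 with siRNA 1, 53.5 with siRNA 2 and 39.8 in control. Peaks of the readthrough gene ISY1-RAB43 on the same strand cover 200 bases or more of both regions in every list, including the whole of that strongest peak, so these values cannot be given to RAB43 alone. A further 3′ UTR peak (chr3:129087960-129088159) was given to RAB43 at percentile 44.2 with siRNA 1 and 39.8 with siRNA 2, and not in control. ISY1-RAB43 had a control peak over the same 200 bases, at percentile 26.9, so the place itself was called in each condition. The 5′ UTR peak whose site is printed above was in the siRNA 2 list alone, at percentile 9.57.

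Among early endosome RABs, 7 of 10 RefSeq members had a peak, all with siRNA 1, 4 with siRNA 2 and 6 in control. RAB5C, RAB4A and RAB14 had none. RAB20, found on endosomes and phagosomes, had a peak of 1000 bases with the same ends in all lists (chr13:110523384-110561533, spanning an intron). It stood at percentile 92.6 with siRNA 1, 96.7 with siRNA 2 and 92.02 in control, with fold enrichments of 75.7, 79.2 and 53.2. RAB20 was the highest-ranked member in both siRNA lists and the second in control. The authors' annotation gives this peak 5′ UTR, coding and 3′ UTR parts and no stop codon.

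The RAB5 paralogs, which drive fusion of early endosomes, differed. RAB5A had 1 stop codon peak in each list, at percentile 52.1 with siRNA 1, 62.7 with siRNA 2 and 70.3 in control, covering 1200, 1000 and 1000 bases. RAB5B had only weak peaks at unlike places. With siRNA 1 it had a 5′ UTR peak (chr12:55973913-55974122, score 5, percentile 5.76), and in control a 3′ UTR peak (chr12:55996496-55996683, score 4, percentile 3.26). It had none with siRNA 2, and its presence in the siRNA 1 and control lists therefore rests on different regions near the lowest score of 3.

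RAB21, which binds integrins and carries them into the cell, had a 5′ UTR and a stop codon region in all lists. The stop codon peak stood at percentile 66.8 with siRNA 1, 74.6 with siRNA 2 and 75.4 in control. The 5′ UTR peak stood at 66.8, 78.1 and 53.2 in the same order, and covered 400 bases in each siRNA list and 200 in control. RAB22A, of early and recycling endosomes, had a stop codon peak at percentile 51.4 with siRNA 1, 53.9 with siRNA 2 and 68.3 in control.

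RAB31, which acts between the Golgi and endosomes, had a stop codon peak at percentile 60.6 with siRNA 1 and 68.0 in control and none with siRNA 2. Its fold enrichment was 10.4 with siRNA 1 and 8.73 in control. The −log10 FDR was 1.74 with siRNA 1 and 1.35 in control, where the lowest value in each list is 1.30. Control also held an upstream RAB31 peak classed as stop codon (chr18:9722862-9726068), at the lowest score of 3. RAB4B, of rapid recycling, had 1 peak of 200 bases on its 5′ UTR with siRNA 1 (chr19:40778216-40779070), at percentile 3.05 with a score of 4, and was not in the other lists.

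In the recycling and surface delivery group, 6 of 10 RefSeq members had a peak, 6 with siRNA 1, 5 with siRNA 2 and 4 in control. RAB11A, the best known RAB of recycling endosomes, had none, whereas its paralog RAB11B did. RAB11B had a 3′ UTR peak of 600 bases with the same ends in both siRNA lists (chr19:8403565-8404164) and no peak in control. With siRNA 1 it had a score of 84 (percentile 73.4), a fold enrichment of 27.1 and a −log10 FDR of 8.05. With siRNA 2 it had a score of 413 (percentile 81.3), a fold enrichment of 16.6 and a −log10 FDR of 2.62. Of RAB11B and RAB24, which both siRNA lists hold and control lacks, RAB11B is the one that no other gene's peak overlaps.

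RAB8A and RAB8B, paralogs of delivery to the surface and the cilium, were both called at the stop codon in all lists. RAB8A (chr19:16132244-16133843 with siRNA 1 and in control) stood at percentile 91.9 with siRNA 1, 95.7 with siRNA 2 and 94.7 in control, the highest RAB percentile in control. Its fold enrichments were 39.0, 29.6 and 28.2. RAB8B stood at percentile 59.0 with siRNA 1, 65.1 with siRNA 2 and 68.3 in control, with fold enrichments of 28.9, 44.9 and 42.9. RAB8A ranked above RAB8B by score in each list, but by fold enrichment only with siRNA 1.

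RAB35, of rapid recycling and of cytokinesis, had a stop codon peak with the same ends in all lists (chr12:120096917-120098965), at percentile 89.5 with siRNA 1, 90.3 with siRNA 2 and 87.7 in control. Downstream, each siRNA list held a 3′ UTR peak that control lacked. It covered 800 bases with siRNA 1 (chr12:120095517-120096316, percentile 61.0, fold enrichment 14.6) and 400 with siRNA 2 (chr12:120095917-120096316, percentile 77.7, fold enrichment 14.2). The weak 5′ UTR peak, at percentile 13.9 with siRNA 1, 29.0 with siRNA 2 and 19.0 in control, faces peaks of the non-coding gene RP1-267D11.6 on the opposite strand.

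RAB10, which carries the glucose transporter GLUT4 to the surface in fat cells, had 1 peak of 200 bases on its 5′ UTR (chr2:26034107-26034306), with siRNA 1 alone. It had a score of 34 (percentile 50.5), a fold enrichment of 12.4 and a −log10 FDR of 2.80. RAB17, a RAB of polarised epithelial cells, had 2 peaks with siRNA 1, 4 with siRNA 2 and 5 in control. Its strongest stood at percentile 73.1 with siRNA 1, 68.5 with siRNA 2 and 63.6 in control. That peak was at the 3′ end of the gene with siRNA 1 and at its start in the other lists, and both places held a peak in all 3 lists.

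Among RABs of late endosomes, lysosomes and related organelles, 4 of 11 RefSeq members had a peak, 4 in each siRNA list and 3 in control. RAB7A, the central RAB of late endosomes, had none. RAB9A, which returns mannose 6-phosphate receptors to the Golgi, had a stop codon peak at percentile 87.0 with siRNA 1, 76.1 with siRNA 2 and 88.4 in control, with fold enrichments of 43.5, 38.1 and 52.8. A weak 3′ UTR peak followed it in control alone, at percentile 14.5. RAB29, known for recruiting the kinase LRRK2, had a 3′ UTR peak that ranked alike in all lists, at percentile 78.6 with siRNA 1, 80.2 with siRNA 2 and 78.4 in control, covering 600, 600 and 1200 bases.

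RAB32, a RAB of melanosomes and related organelles, had the 5′ UTR peak printed above at percentile 18.7 with siRNA 1, 35.7 with siRNA 2 and 34.6 in control. Its stop codon peak was called with siRNA 2 and in control, at percentiles 43.3 and 51.2, and not with siRNA 1. RAB24, which takes part in autophagy, had a stop codon peak with siRNA 1 (chr5:177301263-177301979, percentile 34.5, fold enrichment 8.15, −log10 FDR 1.38) and with siRNA 2 (chr5:177301463-177301979, percentile 50.3, fold enrichment 12.2, −log10 FDR 1.83), and none in control. Both overlap peaks given to MXD3 on the same strand, over 354 and 352 bases, so reads of the 2 genes cannot be told apart there.

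In regulated secretion, 3 of 8 RefSeq members had a peak, and all 3 were in every list. RAB27B, which docks secretory vesicles, had a stop codon peak at percentile 57.4 with siRNA 1, 63.3 with siRNA 2 and 78.9 in control. That peak covered 400, 600 and 800 bases in the same order, and control alone had a further 3′ UTR peak at percentile 38.8. RAB3D, of exocrine secretory granules, stood at percentile 63.0 with siRNA 1, 74.3 with siRNA 2 and 62.7 in control, with fold enrichments of 32.98, 71.5 and 49.98. RAB26, also of secretory granules, stood at 53.5, 48.7 and 51.4 in that order, with all its peaks over the stop codon. RAB27A and the other RAB3 genes had none.

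In the group of ciliary and other RABs, 5 of 7 RefSeq members had a peak and all 5 were in every list. RAB40B and RAB40C belong to a branch with a SOCS box, through which it joins ubiquitin ligases. RAB40C had a stop codon peak of 1980 bases in each siRNA list (chr16:626073-629272), at percentile 90.9 with siRNA 1 and 92.5 with siRNA 2. In control the same stretch held 2 peaks, of 1200 bases at percentile 86.8 and of 580 bases at percentile 90.1. The fold enrichments of 127 with siRNA 1, 140 with siRNA 2 and 98.4 in control for the stop codon peak are the highest of any RAB gene in each list. The last 34 bases of the stretch are shared with peaks of WFIKKN1 on the same strand. A weak upstream peak of 200 bases, with siRNA 1 alone, was also classed as stop codon (chr16:590394-616672, percentile 8.67).

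RAB40B had 2 peaks with siRNA 1, 2 with siRNA 2 and 4 in control, covering 1000, 1000 and 2794 bases. Its stop codon peak was called with siRNA 1 (percentile 28.0, fold enrichment 10.1) and in control (percentile 52.8, fold enrichment 31.4) and not with siRNA 2. RAB23, a negative regulator of Hedgehog signalling, stood at percentile 45.2 with siRNA 1, 34.5 with siRNA 2 and 53.1 in control, at its stop codon or the adjoining 3′ UTR. RAB42 had a peak of about the same extent in all lists, at percentile 76.6 with siRNA 1, 79.1 with siRNA 2 and 73.5 in control.

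RAB28, whose loss causes cone-rod dystrophy, is counted in all 3 lists but shared no place between the siRNA lists and control. With siRNA 1 it had a 5′ UTR peak of 200 bases (chr4:13484166-13484365, percentile 13.9), and with siRNA 2 a 5′ UTR peak of 400 bases (chr4:13474394-13484365, percentile 36.1). In control it had a stop codon peak of 800 bases (chr4:13367865-13369884, percentile 49.8, fold enrichment 17.0). The 5′ UTR peaks overlap each other and neither overlaps the control peak.

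**Figure D4:**
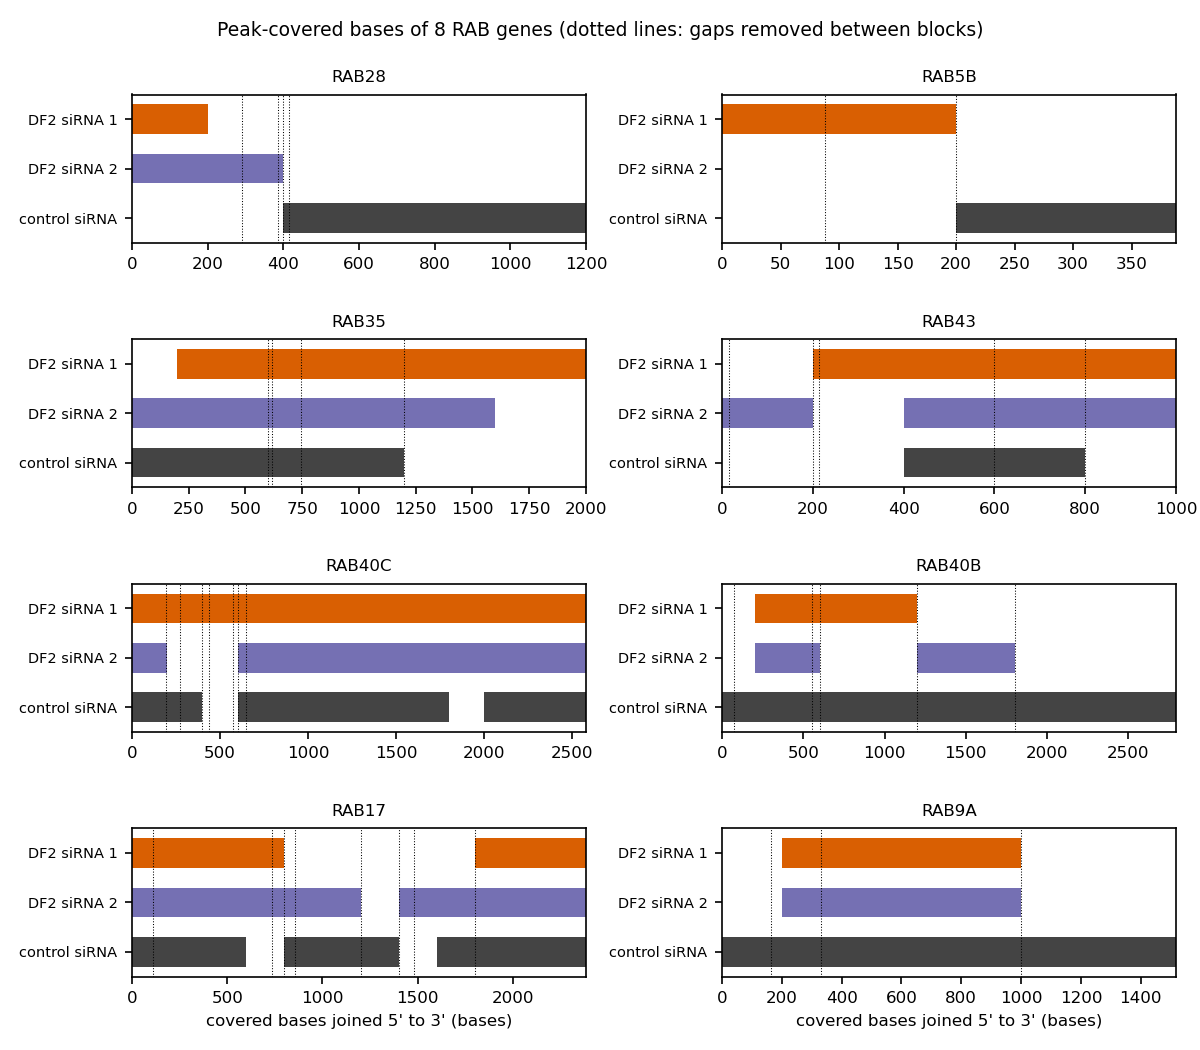
Bases covered by peaks of 8 RAB genes, joined 5′ to 3′ with uncovered bases removed (x axis, bases), in the DF2 siRNA 1, DF2 siRNA 2 and control siRNA lists from top to bottom; dotted lines mark removed gaps. In RAB28 and RAB5B the siRNA and control bars do not meet, and RAB40B covers 1000, 1000 and 2794 bases.

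Over the 22 RAB genes in all 3 lists, the strongest peak was in the same region in 17, beside 89.5% of all 7090 such genes. No interval was computed for the 17 of 22, so no difference is read from it. The bases covered by peaks were fewer with siRNA 1 than in control in 11 genes, more in 5 and equal in 6, and among all such genes they were fewer in 56.6% and more in 21.0%. With siRNA 2 they were fewer in 12, more in 7 and equal in 3, and among all such genes fewer in 47.6% and more in 23.2%. The control list is the longest of the 3, and its depth was not known.

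The proteins that act on RABs were taken as 4 lists of 135 genes, of which 106 had a peak: 96 with siRNA 1, 84 with siRNA 2 and 94 in control. Of RefSeq protein-coding symbols, 43.8% had a peak in any list, 36.7% with siRNA 1, 35.99% with siRNA 2 and 38.9% in control. A peak in all 3 lists was found for 80 of the 106 (75.5%), beside 65.3% of all genes. Control alone held 9 (8.49%), beside 12.1%, and both siRNA lists without control held 3 (2.83%), beside 3.56%. None of these shares is a test of the lists.

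Of the 10 genes for prenylation, GDI and chaperones, 6 had a peak, 6 with siRNA 1, 4 with siRNA 2 and 4 in control. Of RefSeq protein-coding symbols, 43.8% had a peak in any list. All 3 lists held 4 of the 6 (66.7%, beside 65.3% of all genes). CHM and CHML, the escort proteins that present RABs for prenylation, were in all 3 lists. CHML ranked high, at percentile 97.6 with siRNA 1, 97.7 with siRNA 2 and 99.4 in control. CHM stood at 34.5, 42.7 and 59.9 in that order. RABIF and YIPF1 were also in all 3 lists. GDI2, a GDP dissociation inhibitor, had a 5′ UTR peak with siRNA 1 alone (percentile 67.6), as did YIPF2 (percentile 22.8), and these 6 are named as the whole of the list with a peak.

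Of 42 GEFs, 34 had a peak, beside 43.8% of RefSeq protein-coding symbols. All 3 lists held 26 of the 34 (76.5%, beside 65.3% of all genes). RAB3IP, an exchange factor for RAB8, was in control alone (percentile 16.8), as 2.94% of the GEFs with a peak, beside 12.1% of all genes. RIN1, which activates RAB5, was called with each siRNA (percentile 56.7 with siRNA 1 and 65.2 with siRNA 2) but not in control, as was RPGR, a ciliary protein (3.05 and 0.391). These 2 are 5.88% of the GEFs with a peak, beside 3.56% of all genes. Of 34 GAPs, 28 had a peak, beside 43.8% of RefSeq protein-coding symbols. All 3 lists held 24 of the 28 (85.7%, beside 65.3% of all genes). TBC1D5 (percentile 27.6) and TBC1D15 (18.3), which both act on RAB7, were in control alone (7.14%, beside 12.1% of all genes). Of 49 effectors, 38 had a peak, again beside 43.8% of RefSeq protein-coding symbols. All 3 lists held 26 of the 38 (68.4%, beside 65.3% of all genes), and control alone held 6 (15.8%, beside 12.1% of all genes).

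The 6 effectors in control alone were WDR44 and MYO5A, which bind RAB11 (percentiles 74.8 and 45.2), USO1, a tether of the Golgi (69.7), GCC2, a Golgi golgin (64.6), and APPL1 and EEA1, which bind RAB5 (47.0 and 43.2). Other effectors of the same RABs were in all 3 lists, among them APPL2, RABEP1, RABEP2 and RBSN for RAB5 and RAB11FIP1, RAB11FIP2, RAB11FIP3 and RAB11FIP5 for RAB11. RABEP1 stood at percentile 86.4 with siRNA 1, 87.96 with siRNA 2 and 92.2 in control. RAB11FIP4, an effector of RAB11, was called weakly with each siRNA, at percentile 8.67 with siRNA 1 and 12 with siRNA 2, and was absent from the control list.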

How the data were processed

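m6A peaks of U2OS cells treated with DF2 siRNA 1, DF2 siRNA 2 or a control siRNA were used as deposited, 1 list per condition, grouped by the treatment in the labels. HISAT2 and the hg38 build are named per the submitters' processing notes. For the peak caller, the merging of r1 and r2 and the gene annotation, details were not given in the sources used here. Per the file headers, each peak has a score, a fold enrichment (a ratio) and a −log10 FDR, all deposited by the authors. The score's definition is not given, and all deposited peaks had an FDR under 0.05.

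Start positions were raised by 1, and peaks were compared by the blocks they cover, on the same strand, with at least 1 shared base. A gene was taken by its Ensembl ID. Score percentiles are average ranks within a list. Peaks were classed by the authors' annotation, first by any stop codon they touch and then by the UTR they touch, if 1 only. The intervals of medians come from order statistics. Members, lists, marker genes and alternatives were chosen with earlier results of these data known. The genes named with full values were those with a peak in some lists only, the 10 with the highest control score, paralog pairs, and the regulators in control alone or in both siRNA lists alone. Other RAB genes, the prenylation list and further effectors of RAB5 and RAB11 were given after their values were seen. The RefSeq table of GRCh38.p14 gave symbols and windows, and no row carried an older RAB symbol. No test and no p-value was computed. Overlap calls were tested on simulated data and recovered what was planted. Python 3.11.15, pandas 2.3.3, NumPy 2.4.6, SciPy 1.17.1 and matplotlib 3.10.9 were used. Alternatives are given in the closing section.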

Additional observations from a re-analysis of the deposited data

How the results depend on the processing

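No paired analysis was possible because each condition has 1 merged list and no replicates. Of 124 values recomputed under alternatives, 112 stayed within their interval, or within 1.5 times for a count, and 12 moved. With FDR under 0.01, RAB genes in both siRNA lists and not control numbered 1 and such regulators 5. With the top 50% of each list by score, 4 RAB genes were in control alone (RAB23, RAB32, RAB33B and RAB40B), beside 13.4% of all genes, so the count of 0 depends on siRNA peaks in the lower part of their lists. There, 95.2% of siRNA 2 RAB peaks were found in siRNA 1, 5′ UTR shares were 8.33% with siRNA 1, 4.76% with siRNA 2 and 8% in control, and stop codon shares were 71.4% with siRNA 2 and 76.0% in control. RAB genes with a peak in siRNA 1 numbered 25 with FDR under 0.01 and 21 in the top 50%. By the place of the strongest peak, 2 RAB genes (RAB28 and RAB5B) were in control alone. Ranked among the strongest peaks of genes, the siRNA 1 median was 47.9. In alternatives chosen after seeing the data, counting RAB1A gave 1 gene in control alone, and leaving out RAB24, whose peaks overlap those of MXD3, left 1 in both siRNA lists. Lists cut to the same number of peaks, 50% of each peak shared, gaps of up to 100 bases, strand ignored and older symbols kept every value inside the main interval or within 1.5 times the main count. So did counting only 5′ UTR peaks that touch no other part, though the shares were 15.8% with siRNA 1, 10.8% with siRNA 2 and 9.76% in control. Ranks by fold enrichment gave medians of 63.2 with siRNA 1, 65.6 with siRNA 2 and 58.01 in control, inside wide intervals, so the order of the lists by median is not kept. Depth is unknown, so a missing peak is not a missing m6A.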
